A study of Mus musculus with 6 samples.

Results

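The aminoacyl-tRNA synthetases load each amino acid onto its tRNA, and mouse cells keep a cytosolic set and a mitochondrial set, both encoded in the nucleus. The genes followed here are 20 genes of cytosolic synthetases, 16 genes of mitochondrial synthetases and the scaffold genes Aimp1 and Aimp2, 38 of the 52740 gene rows of the count table. They were chosen by symbol from a list, joined to the rows by gene identifier, and each of the 38 was found in 1 row (the row for Mars1 is named Mars in the reference). Names ending in 2 were taken as mitochondrial, apart from Aimp2. Lars2 was treated apart, because its row may collect ribosomal RNA reads.

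The study measured RNA in C2C12 cells, a line of mouse myoblasts that fuse into myotubes when they differentiate. In the siCOX7A2L group, 3 libraries came from cells transfected with an siRNA against Cox7a2l, and in the siCTRL group 3 came from cells transfected with a random control siRNA. Both groups were grown in medium with 10% fetal bovine serum, received their siRNA by lipid transfection, and share the cell line, so each value describes a single line. Cox7a2l encodes a protein through which complexes III and IV of the respiratory chain associate in supercomplexes, and by its title the series asks how the organisation of these supercomplexes bears on differentiation. Whether the replicates were grown as separate cultures is not given, so the p-values cover the spread of these libraries alone, and it may be technical. In bulk RNA, fewer cells of a kind and less RNA per cell cannot be told apart.

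The cytosolic enzymes serve translation of nuclear genes. Of them, 8 (Dars, Eprs, Iars, Kars, Lars, Mars1, Qars and Rars) sit in the multisynthetase complex that Aimp1 and Aimp2 help to hold together. The mitochondrial enzymes charge the tRNAs with which the few messages of mitochondrial DNA are read, and those messages encode core subunits of the respiratory chain. The genes Gars and Kars each encode the enzyme of both compartments. Many cytosolic synthetase genes are known targets of ATF4, a transcription factor that is made when amino acids run short or mitochondria are stressed. By their catalytic fold the enzymes fall into class I and class II, which share no common ancestor, and Eprs joins a class I and a class II enzyme in a single chain.

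Expression is given in CPM, read counts scaled to a common library size, and a gene is said to have risen, fallen or passed where its p-value, adjusted over all genes tested, was under 0.05. Cox7a2l itself had 6.69, 5.86 and 3.59 CPM in the siCOX7A2L libraries and 57.9, 59.4 and 58.9 CPM in the siCTRL libraries (log2 fold change -3.44 ± 0.19 SE, edgeR adjusted p = 1.9e-05). Library totals ran from 9890218 estimated counts in siCOX7A2L replicate 3 to 17077826 in siCTRL replicate 3. In either group the library numbered 3 differed from the other two. The summed level of 6 myotube markers was 26.4, 9.20 and 382 CPM in siCOX7A2L replicates 1, 2 and 3, and 9.70, 9.77 and 147 CPM in siCTRL replicates 1, 2 and 3. Of these markers, 5 were tested and 2 rose, Tnnt1 and Acta1. Myog, a transcription factor of differentiation, had 9.57, 1.33 and 159 CPM in siCOX7A2L libraries and 2.90, 3.78 and 61.1 CPM in siCTRL libraries, and it was not called (edgeR adjusted p = 0.616). The summed level of 7 proliferation markers was 1438, 1423 and 918 CPM in siCOX7A2L libraries and 2003, 2022 and 2196 CPM in siCTRL libraries. Of the 7, 1 fell, Rrm2, where 0.726% of all genes tested passed. All 7 had a negative sign (48.9% of all genes tested) and were lower in all 3 pairs of same-numbered libraries (20.8%). All 7 had an unadjusted p under 0.05 in the edgeR fit (17.7%). For 6 of them every siCOX7A2L library was below every siCTRL library (7.62%). Mki67, another of the 7, had 321, 380.3 and 285 CPM in siCOX7A2L libraries and 465, 491 and 834 CPM in siCTRL libraries, and it stayed above the threshold (edgeR adjusted p = 0.113). The 6 myoblast markers summed to between 1201 and 2672 CPM in siCOX7A2L libraries and between 1273 and 1732 CPM in siCTRL libraries, so the markers of the labelled cell type were present, and none of them passed the test. Of 6 fibroblast markers, 4 were tested and 1, Dcn, rose, and the list summed to between 1664 and 2943 CPM in siCOX7A2L libraries and between 2277 and 2584 CPM in siCTRL libraries. The 3 endothelial and the 3 immune markers summed to at most 3.19 CPM in any library, and Adgre1 was at 0 in all 6. The calls of Tnnt1, Acta1, Rrm2 and Dcn were all lost without the replicate block (edgeR adjusted p = 0.846, 0.927, 0.735 and 0.822) and with limma on TPM. Without replicate 3, those of Acta1, Rrm2 and Dcn were lost (edgeR adjusted p = 0.249, 0.0939 and 0.209), while Tnnt1 was called (edgeR adjusted p = 0.0435). The proliferation sum was lower in siCOX7A2L in all 3 pairs of libraries with the same number, the myotube sum was higher in pairs 1 and 3 and not in pair 2, and the fibroblast sum was higher in pair 2 alone. The part of these markers in the results below was not tested. The fit carries the replicate number as a block, so that libraries of a number are compared with each other.

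None of the 38 genes passed the threshold of 0.05 on the edgeR adjusted p, where 0.726% of the 15022 genes tested did. All 38 had passed the expression filter, and their edgeR adjusted p ran from 0.261 for Iars to 0.960 for Cars2. At an unadjusted p under 0.05 the fit held 1 member, Iars, against 17.7% of all genes tested. DESeq2 with the same block called 0 of 38, where it called 4.4% of genes, and had 0 at an unadjusted p under 0.05, where 13.3% of all genes were. By the authors' deposited table, none of the 38 had an adjusted p under 0.05, where 6.34% of its genes with an adjusted p did, and 3 had an unadjusted p under 0.05, Aars, Gars and Iars, where 9.92% of its genes with a p-value did. No member was called either without the block (0.0133% of genes called), with RLE scaling (0.726%), with a term for replicate 3 in its place (1.31%), on library size alone (0.386%), or with scaling that left out Lars2, ribosomal RNA and the most abundant row (0.845%). The same held with no filter (4.7%), with a minimum mean of 1 CPM (0.891%), and with limma on TPM (0.0599% with 0.1 TPM added, 0.0732% with 1 TPM added). Leaving out replicate 1 (2.45%) or replicate 2 (7.87%) also gave no member, and leaving out replicate 3 (0.339%) gave 1, Lars2. The 95% interval of every member lay within a log2 change of 1 in either direction. For the cytosolic enzymes these intervals lay between -0.57 and 0.45 on the log2 scale, and for the mitochondrial enzymes other than Lars2 between -0.60 and 0.82. In data simulated for this comparison on 14809 genes, 96% of changes of 1 log2 unit were called and 23% of changes of 0.5 log2 units, so changes of the size seen here would mostly go uncalled.

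Below that threshold, the signs of the cytosolic and the mitochondrial set differed. Of the 20 cytosolic enzymes, 18 had a negative log2 fold change, where 48.9% of all genes tested did. Of the 15 mitochondrial enzymes without Lars2, 12 had a positive log2 fold change, where 51.1% of all genes did. The median log2 fold change was -0.16 for the cytosolic enzymes, 0.11 for the mitochondrial enzymes and 0.01 for all genes tested. Without replicate 3 the mitochondrial median was 0.06 and the cytosolic median -0.14, with 11 of 15 positive and 18 of 20 negative. These medians are a description with no test, because the members were chosen with earlier results of these data known.

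**Figure D1:**
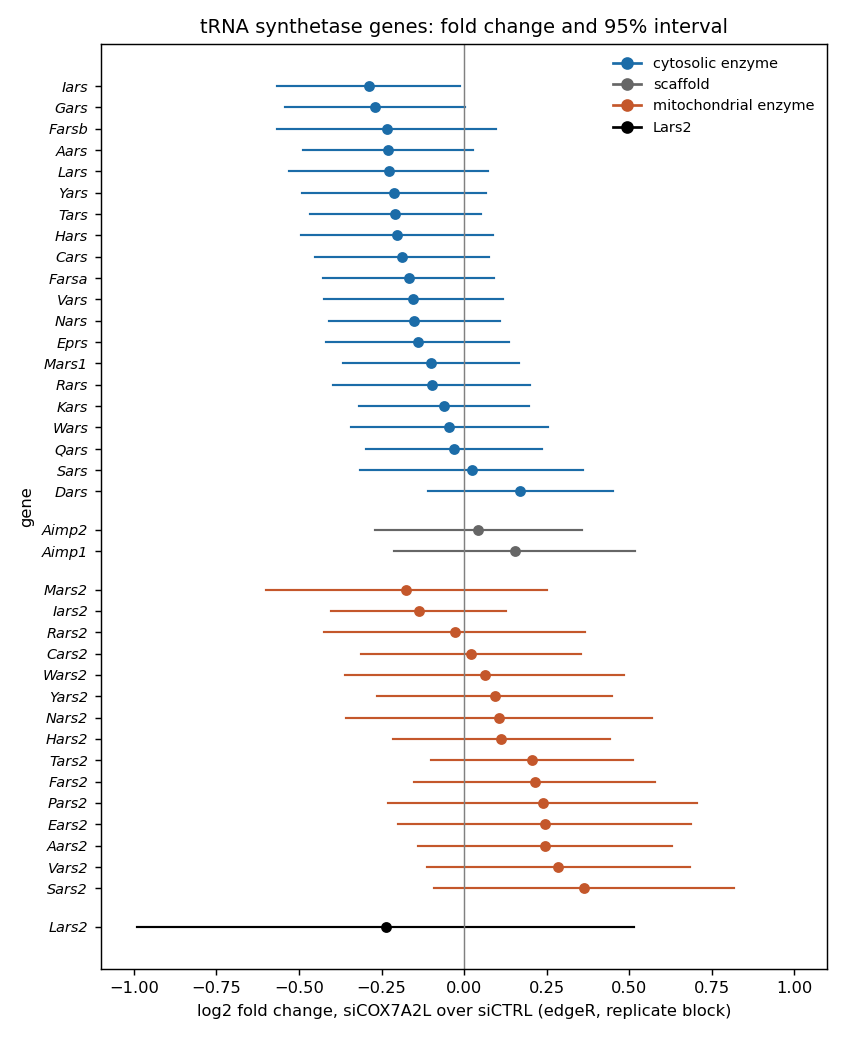
Log2 fold change of siCOX7A2L over siCTRL (x axis) for each of the 38 genes (y axis), from the edgeR fit with the replicate block; points are estimates and lines are 95% intervals. Of the 20 cytosolic enzymes (blue), 18 lie left of 0, and of the 15 mitochondrial enzymes (orange), 12 lie right of it, while the intervals of all genes but Iars include 0.

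Among the cytosolic enzymes, the most negative value over all 6 libraries belonged to Iars (ENSMUSG00000037851.14), which charges tRNA with isoleucine. Iars had 198, 172 and 128 CPM in siCOX7A2L replicates 1, 2 and 3 and 209, 209.7 and 182 CPM in siCTRL replicates 1, 2 and 3. Each siCOX7A2L library was below the siCTRL library of its number, while siCOX7A2L replicate 1 was above siCTRL replicate 3, so the groups overlapped. Iars averaged 166 ± 35.2 CPM in siCOX7A2L libraries and 200.5 ± 15.7 CPM in siCTRL libraries (SD, n = 3 each). The fitted log2 fold change came to -0.29 ± 0.13 (SE, edgeR adjusted p = 0.261). Without replicate 3 it was -0.18, and Vars (-0.27), Hars (-0.26), Aars (-0.24), Cars (-0.21), Yars (-0.20) and Farsa (-0.19) were then more negative. Without replicate 1 it was -0.40, with Farsb at -0.41. In the reference transcripts, 14.6% of the 31-base words of Iars also occur in Gm4849, a row of the table that is at 0 in all 6 libraries. Whether reads of Gm4849 were counted in the Iars row was not tested.

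Gars (ENSMUSG00000029777.11), the glycine enzyme of both compartments, had 296, 258 and 165 CPM in siCOX7A2L libraries and 310.1, 316 and 226 CPM in siCTRL libraries. Replicate 3 was the lowest library in both groups, and the groups overlapped. The fitted log2 fold change came to -0.27 ± 0.12 (SE, edgeR adjusted p = 0.285). Aars (ENSMUSG00000031960.15), the alanine enzyme, had 295, 264 and 298 CPM in siCOX7A2L libraries and 325, 332 and 348 CPM in siCTRL libraries. Here every siCOX7A2L library was below every siCTRL library, and of the 31-base words of Aars 13.8% also occur in Exosc6, a row at 0 in all 6 libraries. Whether reads of Exosc6 were counted in the Aars row was not tested. The fitted log2 fold change of Aars came to -0.23 ± 0.12 (SE, edgeR adjusted p = 0.332). The groups were also apart, with siCOX7A2L below, for Hars (histidine), Nars (asparagine) and Tars (threonine), which makes 4 of 20, where 7.62% of all genes tested were apart in that direction. Tars had 138, 136 and 133 CPM in siCOX7A2L libraries and 148, 155 and 168 CPM in siCTRL libraries.

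The promoters of Gars, Aars and Tars are shown because, of the 13 cytosolic enzymes with an entry among the RefSeq promoter sequences used here, these 3 hold the motif TGATGNAA on either strand. The motif is the composite element of C/EBP and ATF proteins through which ATF4 acts. Capitals mark the match, here in the reverse orientation, in the 250 bases before the annotated start, written 5′ to 3′ on the strand of the gene (build GRCm38.p6, RefSeq). The Gars window is chr6:55037751-55038000 on the plus strand, the Aars window chr8:111033592-111033841 on the plus strand, and the Tars window chr15:11399659-11399908 on the minus strand.
Gars: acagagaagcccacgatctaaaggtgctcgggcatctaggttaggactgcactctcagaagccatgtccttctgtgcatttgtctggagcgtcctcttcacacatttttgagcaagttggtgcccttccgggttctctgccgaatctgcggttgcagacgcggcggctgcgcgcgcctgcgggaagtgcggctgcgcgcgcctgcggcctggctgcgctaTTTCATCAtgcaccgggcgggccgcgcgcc
Aars: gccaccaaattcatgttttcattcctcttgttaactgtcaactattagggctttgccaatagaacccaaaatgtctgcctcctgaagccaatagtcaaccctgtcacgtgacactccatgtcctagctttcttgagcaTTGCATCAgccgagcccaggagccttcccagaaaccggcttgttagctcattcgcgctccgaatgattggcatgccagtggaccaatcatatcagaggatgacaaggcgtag
Tars: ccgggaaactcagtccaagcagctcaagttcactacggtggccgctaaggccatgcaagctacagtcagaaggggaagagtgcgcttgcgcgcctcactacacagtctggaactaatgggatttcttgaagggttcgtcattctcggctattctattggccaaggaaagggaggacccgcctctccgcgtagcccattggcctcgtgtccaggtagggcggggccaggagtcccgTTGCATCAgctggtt
The match starts 30 bases before the annotated start in Gars, 112 bases in Aars and 15 bases in Tars. The motif was found in 3.45% of the 32851 RefSeq promoters, in 0 of 15 promoters of 14 mitochondrial enzymes and in 0 of 3 promoters of Aimp1 and Aimp2. These 14 enzymes include Lars2 but not Hars2 or Pars2, which have no entry, and Aars2 enters with each of its annotated starts. The palindromic motif of NRF1, a transcription factor of mitochondrial biogenesis, was found in 0 of the 13 cytosolic and 0 of the 15 mitochondrial promoters and in 0.782% of all. A match or its absence describes only the letters of these windows.

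The other cytosolic enzymes spanned log2 fold changes from -0.23 for Farsb, a subunit of the phenylalanine enzyme, to 0.17 for Dars, the aspartate enzyme. Dars had 91.9, 76.7 and 81.1 CPM in siCOX7A2L libraries and 76.6, 77.8 and 67.4 CPM in siCTRL libraries. It was higher in pairs 1 and 3 and level in pair 2, where a pair is the siCOX7A2L and the siCTRL library of a replicate number. Sars, the serine enzyme, was the other cytosolic gene with a positive sign, and its siCOX7A2L libraries spread widely, with 226, 165 and 263 CPM, against 207, 222 and 204 CPM in siCTRL libraries. Its log2 fold change of 0.02 (standard error 0.15) turned to -0.15 without replicate 3. Vars, the valine enzyme and the cytosolic gene with the highest TPM, had 436, 463 and 309 CPM in siCOX7A2L libraries and 528, 551 and 294 CPM in siCTRL libraries. Replicate 3 held the lowest Vars value of both groups, and the difference between the replicates exceeded that between the groups.

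Cars (cysteine, -0.19), Farsa (phenylalanine, -0.17), Lars (leucine, -0.23) and Yars (tyrosine, -0.21) lay near or below the cytosolic median. Eprs (glutamate and proline, -0.14), Rars (arginine, -0.10), Kars (lysine, -0.06), Wars (tryptophan, -0.05) and Qars (glutamine, -0.03) lay above it. Lars had 145, 126 and 67.8 CPM in siCOX7A2L libraries and 142, 143 and 99.0 CPM in siCTRL libraries, with the lowest value in replicate 3 of both groups.

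Cytosolic enzymes outside the multisynthetase complex had a median log2 fold change of -0.20 (12 genes), against -0.10 for the 8 enzymes inside it. Of the 12 outside, 8 were lower in all 3 pairs, and of the 8 inside, 1, Iars, was. In pairs 1, 2 and 3 the medians were -0.08, -0.30 and -0.18 log2 CPM outside the complex and 0.05, -0.13 and -0.19 inside it. The enzymes outside were thus the lower in pairs 1 and 2 and not in pair 3. Over all 20 cytosolic enzymes 9 were lower in all 3 pairs and 0 were higher in all 3, where 20.8% of all genes tested were lower and 21.2% higher. The scaffold genes had positive signs. Aimp1 had 35.4, 27.7 and 34.2 CPM in siCOX7A2L libraries and 33.0, 31.5 and 23.3 CPM in siCTRL libraries, with a log2 fold change of 0.15 (standard error 0.17). For Aimp2 it was 0.04 (standard error 0.14). By class of the catalytic fold, the cytosolic medians were -0.15 for 9 class I and -0.19 for 10 class II enzymes.

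Among the mitochondrial enzymes the most positive value belonged to Sars2 (ENSMUSG00000070699.6), the serine enzyme. Sars2 had 12.1, 11.02 and 21.0 CPM in siCOX7A2L libraries and 11.6, 10.3 and 11.1 CPM in siCTRL libraries. Replicate 3 of siCOX7A2L stood well above the other 5 libraries, which overlapped. Its log2 fold change, the highest of all members, came to 0.36 ± 0.21 (SE, edgeR adjusted p = 0.393), and 0.08 without replicate 3. Vars2 (ENSMUSG00000038838.16), the valine enzyme, had 40.9, 40.4 and 47.2 CPM in siCOX7A2L libraries and 39.7, 40.9 and 26.1 CPM in siCTRL libraries. Its replicates 1 and 2 were close in both groups, and siCTRL replicate 3 was the low library. The fitted log2 fold change came to 0.29 ± 0.18 (SE, edgeR adjusted p = 0.446), and 0.0103 without replicate 3. Aars2 (alanine) and Ears2 (glutamate) showed the same shape, with pair 3 at 0.75 and 0.66 log2 CPM and pairs 1 and 2 between -0.05 and 0.13.

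Some of the other mitochondrial enzymes were more even over the pairs. Yars2 (ENSMUSG00000022792.17), the tyrosine enzyme, had 14.4, 15.5 and 14.8 CPM in siCOX7A2L libraries and 13.995, 13.7 and 14.3 CPM in siCTRL libraries. It was the only mitochondrial gene with every siCOX7A2L library above every siCTRL library, where 7.96% of all genes tested were apart in that direction, and its log2 fold change was 0.09 (standard error 0.16, edgeR adjusted p = 0.817). Tars2 (threonine) had 52.0, 41.6 and 34.2 CPM in siCOX7A2L libraries and 44.7, 40.5 and 26.5 CPM in siCTRL libraries. Fars2 (phenylalanine), Hars2 (histidine), Pars2 (proline), Sars2, Tars2 and Yars2, 6 of 15, were higher in all 3 pairs, and Iars2 (isoleucine) was lower in all 3. Of all genes tested, 21.2% were higher and 20.8% lower in all 3 pairs. Iars2 is the mitochondrial enzyme other than Lars2 with the highest CPM, with 101, 102 and 65.8 CPM in siCOX7A2L libraries and 111, 106 and 77.7 CPM in siCTRL libraries. The methionine enzyme Mars2 (log2 fold change -0.18) and the arginine enzyme Rars2 (-0.03) were the other mitochondrial genes with a negative sign. The remaining values were 0.11 for Nars2 (asparagine), 0.06 for Wars2 (tryptophan) and 0.02 for Cars2 (cysteine). Mars2 was uneven, at -0.05, -0.67 and 0.26 log2 CPM in pairs 1, 2 and 3. Nars2, Wars2, Rars2 and Cars2 also changed sign between pairs. All 7 class II mitochondrial enzymes had a positive sign, where 51.1% of all genes tested did. Their median was 0.21, against 0.04 for the 8 of class I without Lars2.

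**Figure D2:**
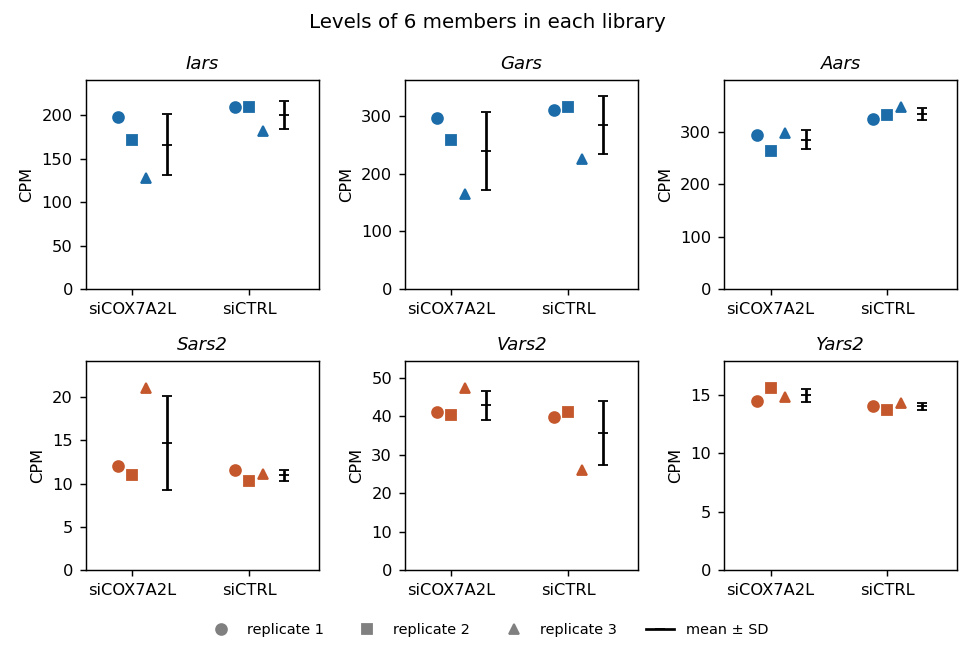
CPM (y axis, from 0) of 3 cytosolic genes (upper row, blue) and 3 mitochondrial genes (lower row, orange) in siCOX7A2L and siCTRL libraries; symbols mark the replicate number, and the black bar is the mean with its SD (n = 3). Aars and Yars2 have groups that do not overlap, and the Sars2 difference comes from siCOX7A2L replicate 3 at 21.0 CPM.

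Within the pairs, the cytosolic median was 0.00 in pair 1, -0.25 in pair 2 and -0.19 in pair 3 (log2 CPM). The mitochondrial median was 0.05, 0.04 and 0.26 in pairs 1, 2 and 3. The cytosolic median was thus below the mitochondrial one in each pair, by 0.05, 0.29 and 0.45, but in pair 1 it was at 0. All 20 cytosolic enzymes were negative in pair 2, 16 were in pair 3 and 10 in pair 1. In pair 3 both sets spread most, and the high mitochondrial values there were those of Sars2, Vars2, Aars2 and Ears2. The difference between the medians was -0.27 in the fit of all 6 libraries and -0.20 without replicate 3.

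**Figure D3:**
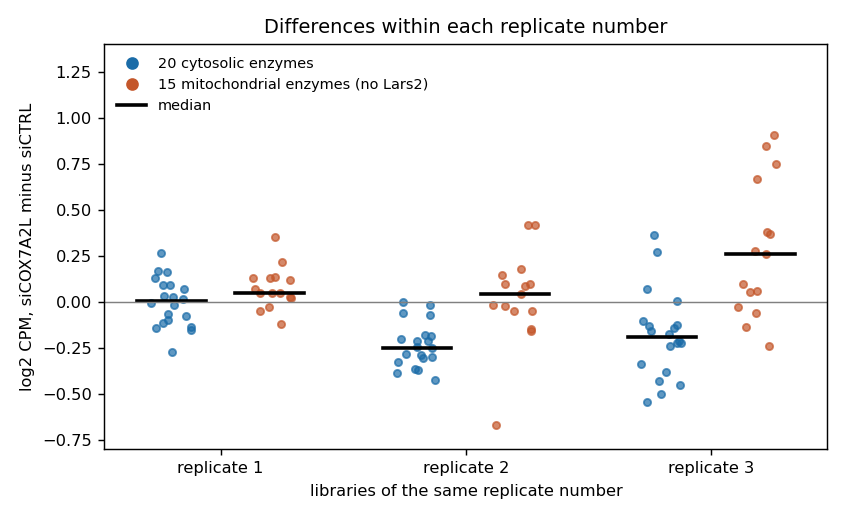
Difference in log2 CPM, siCOX7A2L minus siCTRL (y axis), within each replicate number (x axis) for 20 cytosolic enzymes (blue) and 15 mitochondrial enzymes without Lars2 (orange); points are genes and black lines are medians. The cytosolic median lies below the mitochondrial median in each pair, at 0.00 against 0.05 in pair 1 and at -0.19 against 0.26 in pair 3.

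Both sets had lower medians in replicate 3 than in replicates 1 and 2, in both groups. In siCOX7A2L libraries, replicate 3 had a median log2 difference from replicates 1 and 2 of -0.26 for the cytosolic enzymes and -0.43 for the mitochondrial enzymes. In siCTRL libraries these differences were -0.16 and -0.47. Over all genes tested the same median was -0.02 in siCOX7A2L and -0.01 in siCTRL libraries. Each of these differences sets 1 library against the mean of 2 and was not tested.

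Set side by side by amino acid, the cytosolic gene had the lower log2 fold change in 15 of 16 combinations without Lars2. Some genes stand in more than 1 combination, since Eprs serves glutamate and proline and the cytosolic phenylalanine enzyme has a subunit from each of Farsa and Farsb. The widest gap was that of alanine, with -0.23 for Aars and 0.24 for Aars2. The valine enzymes had -0.15 for Vars and 0.29 for Vars2, and the threonine enzymes -0.21 for Tars and 0.21 for Tars2. The exception was methionine, with -0.10 for Mars1 and -0.18 for Mars2. Within the pairs, the cytosolic gene was the lower in 11, 15 and 15 of the 16 combinations in pairs 1, 2 and 3, and in 10 of them in all 3 pairs. With 18 of 20 cytosolic genes negative and 12 of 15 mitochondrial genes positive, most pairings across the sets would put the cytosolic gene lower. The matching by amino acid was not compared with other pairings, so these counts are no separate result.

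**Figure D4:**
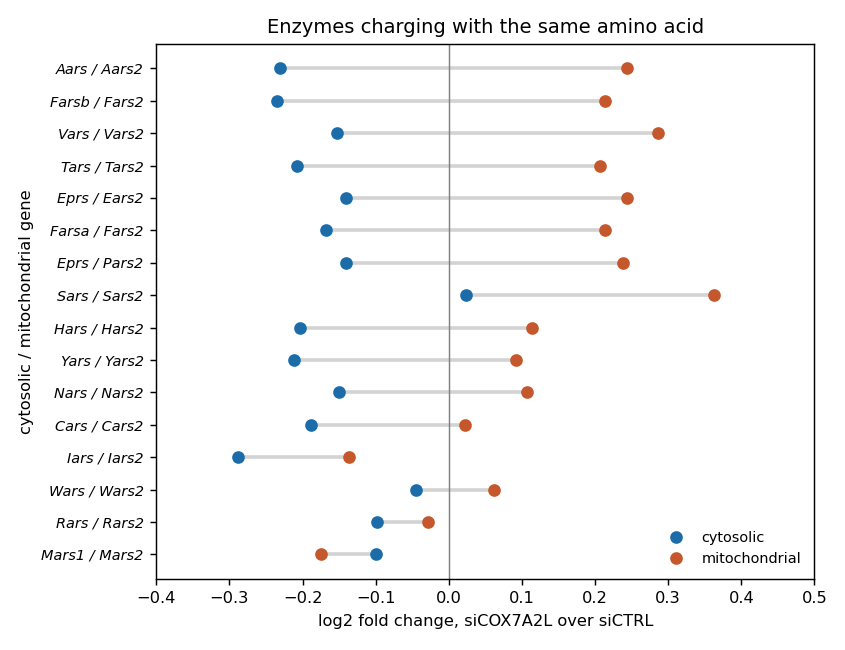
Log2 fold change of siCOX7A2L over siCTRL (x axis) for the cytosolic gene (blue) and the mitochondrial gene (orange) charging with the same amino acid, for the 16 combinations without Lars2. The cytosolic gene lies left of the mitochondrial gene in 15, with Mars1 and Mars2 the exception, and none of these genes passed the test.

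Levels between genes were compared on the deposited TPM, an abundance that is scaled for transcript length and library. The cytosolic enzymes averaged between 17.7 TPM (Farsb) and 110.4 TPM (Vars) in siCOX7A2L libraries, and between 23.4 TPM (Farsb) and 145 TPM (Vars) in siCTRL libraries. The mitochondrial enzymes without Lars2 averaged between 1.17 TPM (Mars2) and 19.2 TPM (Vars2) in siCOX7A2L libraries, and between 1.55 TPM (Mars2) and 21.8 TPM (Iars2) in siCTRL libraries. The median was 39.2 TPM for cytosolic and 7.61 TPM for mitochondrial enzymes in siCOX7A2L libraries, and 53.1 TPM and 8.87 TPM in siCTRL libraries. In each of the 16 combinations the cytosolic gene was the higher of the pair in mean TPM. The ratio ran from 1.57 to 43.3, with a median of 4.96, in siCOX7A2L libraries and from 1.63 to 42.1, with a median of 6.40, in siCTRL libraries.

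A single row without a symbol took between 36.9% and 53.6% of TPM in the libraries, so TPM levels of other genes shift with it. A quotient of sums within a library does not. The summed TPM of the 20 cytosolic enzymes over that of the 15 mitochondrial enzymes was 7.43, 6.72 and 8.32 in siCOX7A2L replicates 1, 2 and 3, and 7.94, 8.27 and 9.47 in siCTRL replicates 1, 2 and 3. It was lower in siCOX7A2L in each pair, 0.935, 0.812 and 0.879 times the siCTRL value, while the groups overlapped because siCOX7A2L replicate 3 was above siCTRL replicates 1 and 2.

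Lars2 (ENSMUSG00000035202.9), the mitochondrial leucine enzyme by name, stood far above the other mitochondrial members in level. It had 2160, 1896 and 1339 TPM in siCOX7A2L libraries and 3767, 3262 and 1270 TPM in siCTRL libraries, between 9.98 and 24.8 times the summed TPM of the 15 other mitochondrial enzymes. It took 0.995%, 0.915% and 0.803% of the counts in siCOX7A2L replicates 1, 2 and 3, and 1.67%, 1.45% and 0.533% in siCTRL replicates 1, 2 and 3. The siCOX7A2L libraries were close to each other, and the siCTRL libraries held both the highest and the lowest value. The fitted log2 fold change came to -0.24 ± 0.31 (SE, edgeR adjusted p = 0.751), made of -0.79, -0.65 and 0.76 log2 CPM in pairs 1, 2 and 3. Without replicate 3 Lars2 was called lower (log2 fold change -0.72, edgeR adjusted p = 0.0307), where 0.133% of the genes tested in that fit were, and without replicate 1 its sign turned (0.0499). Over the 13 alternatives its adjusted p ran from 0.0307 to 0.975.

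Because the row may collect ribosomal RNA reads, the RNA composition of the libraries is given beside it. Mitochondrial ribosomal RNA took 0.218%, 0.164% and 0.233% of the counts in siCOX7A2L libraries and 0.158%, 0.136% and 0.169% in siCTRL libraries. The row without a symbol took 6.97%, 7.57% and 11.1% in siCOX7A2L libraries and 6.59%, 6.25% and 5.81% in siCTRL libraries. Both shares were higher in siCOX7A2L in each pair. Of the 11160 words of 31 bases in the Lars2 transcripts, 0 occur on either strand of the 5 ribosomal RNA-like genes checked. These were CT010467.1, Gm42418, Gm26917, AY036118 and CT010467.2 of the reference transcripts. The mitochondrial ribosomal RNA genes and the row without a symbol were not among them. Exact words also miss sequence that is merely similar, so this count cannot decide whether the row collects ribosomal RNA reads. The part of RNA composition in the Lars2 values was not tested.

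**Figure D5:**
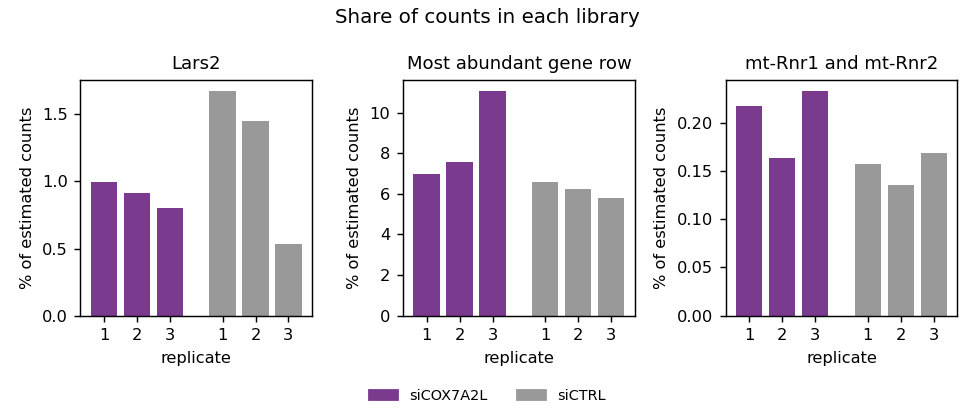
Share of estimated counts (y axis, %, from 0) taken by Lars2, by the most abundant gene row, which has no symbol in the reference, and by the mitochondrial ribosomal RNA genes, for replicates 1 to 3 of siCOX7A2L (purple) and siCTRL (grey). Lars2 is lower in siCOX7A2L than in siCTRL for replicates 1 and 2 and higher for replicate 3. The other shares are higher in siCOX7A2L in each pair.

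The partners of tRNA charging showed no common direction. Of 21 listed genes, all tested, 0 passed the edgeR test, where 0.726% of all genes tested did. At an unadjusted p under 0.05 in the edgeR fit there were 2, against 17.7% of all genes tested. A negative sign was held by 11, where 48.9% of all genes tested had it, and the median was -0.02. Nearest to the threshold was Xpot, which exports tRNA from the nucleus, with 124, 105 and 68.2 CPM in siCOX7A2L libraries and 159, 158 and 109 CPM in siCTRL libraries. It had -0.54 ± 0.12 (SE, edgeR adjusted p = 0.0674). Eef1e1, a further component of the multisynthetase complex, had -0.10 ± 0.16 (SE). Xpot was singled out after its values were seen.

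Of 13 listed mitochondrial translation factors 12 were tested, and 0 passed the edgeR test, where 0.726% of all genes tested did. In the edgeR fit 1 had an unadjusted p under 0.05 (17.7% of all genes tested). A positive sign was held by 8 (51.1% of all genes tested), and the median was 0.12. Tufm, the mitochondrial elongation factor that brings charged tRNA to the ribosome, had 0.12 ± 0.13 (SE). Of 18 genes of mitochondrial tRNA maturation, all tested, 0 passed the edgeR test, where 0.726% of all genes tested did. In the edgeR fit 2 had an unadjusted p under 0.05 (17.7% of all genes tested). A negative sign was held by 12 (48.9% of all genes tested), and the median was -0.01. The 22 tRNA genes of mitochondrial DNA could not be tested, since they summed to at most 1.35 CPM in any library and 16 of them were at 0 in all.

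Genes that answer to ATF4, outside the synthetases, were mostly negative in sign. Of 25 listed genes 24 were tested, and 2 fell, Chac1 and Psat1, and 0 rose, where 0.726% of all genes tested passed. A negative sign was held by 21, where 48.9% of all genes tested had it, and the median was -0.38. At an unadjusted p under 0.05 in the edgeR fit there were 16, 15 of them lower, against 17.7% of all genes tested. In all 3 pairs 17 were lower, where 20.8% of all genes tested were. Psat1, of serine synthesis, had 272, 237 and 116 CPM in siCOX7A2L libraries and 385, 389 and 269.9 CPM in siCTRL libraries (log2 fold change -0.81 ± 0.15 SE, edgeR adjusted p = 0.040). Chac1, which degrades glutathione, had 33.4, 31.5 and 26.7 CPM in siCOX7A2L libraries and 54.4, 56.4 and 44.9 CPM in siCTRL libraries (log2 fold change -0.76 ± 0.13 SE, edgeR adjusted p = 0.037). Without the replicate block neither was called (edgeR adjusted p = 0.735 for Chac1 and 0.786 for Psat1). Over the 13 alternatives the adjusted p ran from 6.7e-05 to 0.735 for Chac1 and from 2.08e-07 to 0.786 for Psat1. Psat1 was also not called without replicate 3 (edgeR adjusted p = 0.0657). Atf4 itself had -0.36 ± 0.12 (SE, edgeR adjusted p = 0.167). Asns, which makes asparagine, had -0.48 ± 0.15 (SE, edgeR adjusted p = 0.137). Ddit3, a transcription factor of the same stress response, had -0.39 ± 0.17 (SE, edgeR adjusted p = 0.264). The list was drawn up with earlier results of these data known, so its direction is no independent evidence about the synthetases.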

How the data were processed

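Ribosomal RNA was removed from 2 µg RNA per library before dUTP-stranded library construction, per the labels' protocols. How strand was used in counting is not given in the sources used here. Salmon 0.13.1, Trim Galore 0.6.4, the build mm39 and DESeq2 1.30.1 appear in the submitters' processing notes, with no step for each. The authors deposited estimated counts per gene (12.5% to 14.3% of values not whole) and TPM, scaled to length and to an equal sum per library. Their deposited result table holds, per the file headers, scaled counts (a normalised signal), log2 fold changes with standard errors, a test score, and p-values with adjusted p-values.

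Counts were rounded, since the design foresaw whole counts, and the test was that of edgeR 4.0.16 under R 4.3.3 (TMM factors, default filter by group, robust quasi-likelihood test, replicate number as a block, Benjamini-Hochberg adjustment over 15022 genes, threshold 0.05). CPM are counts over TMM-scaled library sizes. Standard errors are the fold change over the root of F, intervals use the fit's degrees of freedom, and pair values are log2 CPM with a prior count of 2. Differences of replicate 3 had 0.5 CPM added. The fit was tested on simulated data with 200 changed genes.

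Deviations from the group means of libraries with the same number correlated at 0.53, 0.45 and 0.67 across genes, and those of other numbers at no more than 0.44. Same-numbered libraries were treated as pairs because the rule that defines the gene set asks for the replicate number as a block. The correlations set same numbers apart clearly only for replicate 3, since replicates 1 and 2 also correlate across numbers at 0.43 and 0.44. No label says what a number shares. Control replicates 1 and 2, the most similar libraries, differed by more than counting noise (median chi-square 0.835, against 0.455) and were kept as 2 samples.

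The members, lists and tests were chosen with earlier results of these data known. By rule the text names all 38 members, Cox7a2l, Atf4, Ddit3, Asns, Eef1e1, Tufm, Mki67, Myog and up to 4 called genes of each list, and Xpot was added after its values were seen. A gene outside the 38 that the naming rule also lists is not reported here. Symbols were joined by identifier without version to GENCODE M21 (97.6% of rows matched). The alternatives were DESeq2 1.42.0, limma 3.58.1 on log2(TPM + 0.1) and log2(TPM + 1), other scalings, filters and models, and leaving out each replicate number.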

Additional observations from a re-analysis of the deposited data

How the results depend on the processing

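Across the 13 alternatives, the cytosolic median stayed between -0.25 and -0.13, the mitochondrial median without Lars2 between 0.06 and 0.13, and their difference between -0.34 and -0.20. On TPM the median of all genes was -0.24 (0.1 added) and -0.18 (1 added), and TPM values here are given relative to it, while their adjusted p are not. No member was called in any alternative other than without replicate 3, where 1 was, Lars2, lower (-0.72). Over the alternatives that leave out a replicate number, the count of members called lower therefore ran from 0 to 1. With the block, leaving out 1 library is the same fit as leaving out both of its number. Without the replicate block the lowest adjusted p of a member was 0.828 and the cytosolic and mitochondrial medians were -0.17 and 0.12.

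The count over all genes was 109, and it was 2 with no replicate block, 197 with a term for replicate 3 in its place, 58 on library size alone, 1257 with no filter, 507 with DESeq2, 9 and 11 with limma on TPM with 0.1 and 1 added, and between 51 (without replicate 3) and 1210 (without replicate 2) with a number left out, 373 without replicate 1. Removing Lars2, ribosomal RNA and the top row from scaling gave 127.

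Of 494 values of single members under these alternatives, 25 in 14 members changed sign, none past the threshold; the cause was not tested. On library size alone these were Sars (-0.022), Aimp2 (-0.0011) and Cars2 (-0.021). On TPM with 0.1 added they were Cars2 (-0.031), Fars2 (-0.087) and Rars2 (0.057), and with 1 added Sars (-0.026), Aimp2 (-0.0116), Cars2 (-0.063), Fars2 (-0.125), Rars2 (0.0027) and Yars2 (-0.025). With a replicate number left out, the members whose sign turned ranged as follows: Sars -0.150 to 0.237, Aimp2 -0.044 to 0.097, Lars2 -0.724 to 0.050, Wars2 -0.094 to 0.160, Wars -0.153 to 0.074, Cars2 -0.025 to 0.058, Mars2 -0.357 to 0.082, Qars -0.085 to 0.031, Aimp1 -0.042 to 0.314, Aars2 -0.0053 to 0.386, Nars2 -0.0082 to 0.242 and Rars2 -0.093 to 0.022. Over the alternatives, between 17 and 19 of the 20 cytosolic enzymes were negative and between 10 and 12 of the 15 mitochondrial enzymes positive. Chac1 was also not called with limma, nor was Psat1. Psat1, Acta1 and Dcn were not called on library size alone (adjusted p = 0.0665, 0.064 and 0.0622), nor Acta1 and Rrm2 with a term for replicate 3 (0.055 and 0.0507). Depth limits the lowest members most, with 34 counts of Pars2 in siCOX7A2L replicate 3.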
